A study of Mus musculus with 12 samples.

Results

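ATF4-deficient (KO) and wild-type (WT) mouse embryonic fibroblasts were compared for mature miRNAs after 12 h of tunicamycin, on 4 of the 12 arrays of the series. Each genotype had 2 arrays, chosen by their labels and paired by replicate number, and all 611 mouse miRNA names on the array entered the comparison. Both groups were embryonic fibroblasts of C57BL/6 background kept in 2 ug/mL tunicamycin for 12 h, and they differed by label only in Atf4. The other arrays, also 2 per group, held both genotypes untreated or after 24 h of the same dose. The study asked which miRNAs respond at 12 h in a way that depends on ATF4, and this comparison gives the genotype difference under stress. The arrays were described as independent experiments, but the labels do not say how many fibroblast lines or embryos stood behind a genotype. The p-values therefore measure the spread between these arrays. WT arrays lay on row 1 and KO arrays on row 2 of the slide, so genotype and row cannot be told apart. The array measures no Atf4 mRNA, so the genotype labels were not checked here.

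Tunicamycin blocks N-linked glycosylation, so that unfolded proteins build up in the endoplasmic reticulum. One arm of the unfolded protein response, through the kinase PERK and phosphorylated eIF2alpha, raises translation of ATF4, a transcription factor that switches on genes of amino acid supply, redox balance and, under lasting stress, cell death. A miRNA is a short RNA that pairs with messenger RNAs mainly through its seed, bases 2 to 8, and lowers their translation or stability. miRNAs with 1 seed form a family with largely shared targets, and miRNAs cut from 1 primary transcript form a cluster.

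The sequences below are those of miRNAs that passed the test described below and of related miRNAs that did not. The values within a family can thus be read against the letters. They were taken from RefSeq (GRCm38.p6) and are written 5′ to 3′ with the seed in capitals. The first lines hold miRNAs that were higher in KO and their seed mates. miR-34c also passed, but no mature sequence was found under its name, so only miR-34a and miR-34b-5p, which did not pass, are shown.
miR-199a-5p: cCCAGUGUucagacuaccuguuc
miR-199a-3p: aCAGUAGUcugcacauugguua
miR-214: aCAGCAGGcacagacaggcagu
miR-196a: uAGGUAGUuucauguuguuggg
miR-196b: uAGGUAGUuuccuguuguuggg
miR-322: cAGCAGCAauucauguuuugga
miR-15b: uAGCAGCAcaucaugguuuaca
miR-16: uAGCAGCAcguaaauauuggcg
miR-26a: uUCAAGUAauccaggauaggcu
miR-26b: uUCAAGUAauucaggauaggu
miR-34a: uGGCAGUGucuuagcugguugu
miR-34b-5p: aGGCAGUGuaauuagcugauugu
The next lines hold miRNAs that were lower in KO, with miR-193b as the seed mate of miR-193 (listed as miR-193a-3p in RefSeq).
miR-155: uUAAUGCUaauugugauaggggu
miR-7a: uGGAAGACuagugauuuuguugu
miR-210: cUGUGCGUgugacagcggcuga
miR-193: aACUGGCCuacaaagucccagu
miR-193b: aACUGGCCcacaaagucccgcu
The last lines hold the miR-17~92 group, the related miR-106b~25 group and the pair of miR-221 and miR-222, none of which passed.
miR-18a: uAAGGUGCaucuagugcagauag
miR-19a: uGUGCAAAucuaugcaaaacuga
miR-19b: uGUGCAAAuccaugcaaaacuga
miR-20a: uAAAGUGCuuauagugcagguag
miR-20b: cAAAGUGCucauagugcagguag
miR-92a: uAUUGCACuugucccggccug
miR-106b: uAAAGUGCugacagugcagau
miR-93: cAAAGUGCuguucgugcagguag
miR-25: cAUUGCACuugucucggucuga
miR-221: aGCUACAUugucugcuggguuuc
miR-222: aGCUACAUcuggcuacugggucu
miR-196a and miR-196b differ at 1 of 22 positions, miR-26a and miR-26b at 2 of 21, and miR-193 and miR-193b at 3 of 22. miR-19a and miR-19b differ at 1 of 23 positions and miR-20a and miR-20b at 2 of 23. How well the probes tell such near-identical members apart was not tested. Sequences and hairpins were looked up by name, so a hairpin of another name with the same mature sequence would not be listed.

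In GRCm38.p6 the hairpins Mir199a-2 (chr1:162217814-162217923, plus strand) and Mir214 (chr1:162223368-162223477, plus strand) lie within 5664 bases of each other, inside the spans of Dnm3 and of the noncoding gene Dnm3os. A second copy, Mir199a-1, lies within the span of Dnm2 at chr9:21496495-21496564. The hairpins of miR-18a, miR-19a, miR-20a, miR-19b and miR-92a sit within 656 bases of chr14:115043851-115044506. miR-20b, with second copies of miR-19b and miR-92a, comes from 355 bases of chrX:52741838-52742192. miR-106b, miR-93 and miR-25 come from 498 bases within Mcm7 at chr5:138165321-138165818. Mir193a (chr11:79711969-79712034) and Mir193b (chr16:13449523-13449601) lie on different chromosomes. miR-155 lies within Mir155hg (chr16:84714140-84714204), 1 of the 2 hairpins of miR-7a within Hnrnpk (chr13:58392779-58392886), and both hairpins of miR-26a within Ctdspl and Ctdsp2.

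A level is given here as the log2 of a miRNA's signal over the 75th percentile of its array, so 0 is the 75th percentile of the 82 miRNAs seen on all 12 arrays. Levels below -4.96 were raised to that floor. On the 4 arrays 127 to 138 mouse miRNAs were well above background. Of the 611, 120 were tested and 491 were left out as too dim, and 90 of the 120 were well above background on all 4 arrays. The fibroblast markers, such as miR-21, miR-22 and miR-125b-5p, gave summed signals of 2715 to 3541 percent of the 75th percentile in WT and 3594 to 3753 in KO, with 10 of 12 tested. Most of each sum was miR-21 alone, with 1501 to 2061 percent in WT and 2304 to 2368 in KO. No epithelial or neural marker was well above background on any of the 4 arrays. Single names of the muscle (1 of 4), blood and endothelium (1 of 9) and pluripotent (1 of 10) lists were, on at least 1 array, with summed signals of at most 22.7 percent.

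Both arms of miR-199a, miR-214, miR-196a, miR-322, miR-34c and miR-26a were higher in KO, and miR-155, miR-7a, miR-193 and miR-210 were lower. In limma's fit of the 8 tunicamycin arrays with the replicate number as a block, 11 of 120 miRNAs (9.17 percent) passed a Benjamini-Hochberg adjusted p of 0.05. Of these, 7 (5.83 percent) were higher and 4 (3.33 percent) lower in KO, and 39 of the 120 had an unadjusted p under 0.05. Where both arrays of a genotype were at the floor, as for miR-196a, miR-34c and miR-7a, the floor set their spread to 0. The p-values of such miRNAs leave that spread out. Both KO arrays lay on the same side of both WT arrays for all 11, as they did for 71 of the 120 (59.2 percent), 44 with KO above (36.7 percent) and 27 with KO below (22.5 percent). The replicate 1 arrays and the replicate 2 arrays gave alike differences: 87 miRNAs had the same sign in both, 23 opposite signs, and 10 a difference of 0 in 1 of them. Across the 120 miRNAs the Pearson correlation of the differences was 0.84, a description, since all arrays share a slide and a scaling set. The median of all differences (KO minus WT) was 0.13, and -0.13 when arrays were scaled to the 75th percentile of every miRNA, so small differences have no firm sign.

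**Figure D1:**
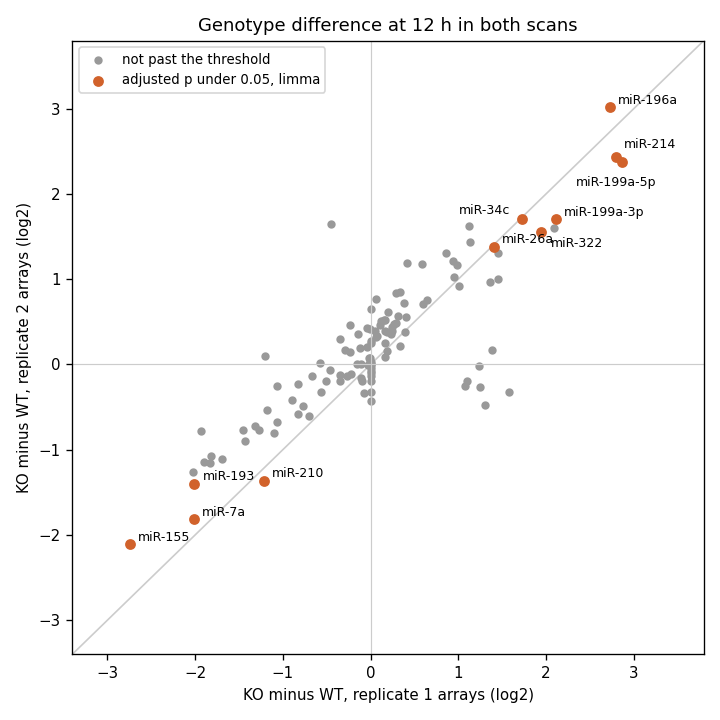
KO minus WT at 12 h (log2) on the replicate 1 arrays (x axis) against the replicate 2 arrays (y axis) for 120 tested miRNAs; orange points passed limma's adjusted p of 0.05 and the diagonal marks equal differences. The 11 orange points have the same sign in both, from miR-155 (-2.75 and -2.11) to miR-196a (2.73 and 3.02).

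How many miRNAs passed depended on which arrays supplied the spread. With only the 4 arrays at 12 h, whose fit has 1 residual degree of freedom, 41 passed (34.2 percent), 22 higher (18.3 percent) and 19 lower (15.8 percent), the 11 among them. With no replicate block the 8 arrays gave 8 (6.67 percent), 4 each way (3.33 percent). No miRNA passed without any 1 of the 4 arrays at 12 h or either WT array at 24 h, and 28 did without either KO array at 24 h. The split between higher and lower moved with the scaling, from 7 and 4 to 8 and 8 with median scaling and 3 and 6 when every miRNA entered the percentile. Quantile normalization left 0.

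miR-199a and miR-214, which are known from mesenchymal cells and share a primary transcript, were all higher in KO. miR-199a-5p read -3.65 and -3.35 on the WT arrays and -0.78 and -0.97 on the KO arrays. KO exceeded WT by 2.62 ± 0.40 (SE, n = 2 per group; limma adjusted p = 0.0305), or 6.15-fold. miR-214 read -2.46 and -2.21 in WT and 0.34 and 0.23 in KO. The difference was 2.62 ± 0.48 (adjusted p = 0.0448), or 6.14-fold. The other arm of the miR-199a hairpin, miR-199a-3p, read -0.60 and -0.30 in WT and 1.51 and 1.41 in KO, a difference of 1.91 ± 0.38 (adjusted p = 0.0457). The groups were apart for all 3, by far more than the gap between replicates. miR-199b*, from a related hairpin, had a difference of 1.16 ± 0.29 that did not pass (adjusted p = 0.0666). How much of the miR-199a-3p signal, if any, came from that related hairpin or from the second miR-199a copy was not tested. Of the 4 tested members of this list 3 were higher and 1 did not pass, beside 5.83 percent higher among all tested, with a median of 2.26 beside 0.13 for all miRNAs.

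**Figure D2:**
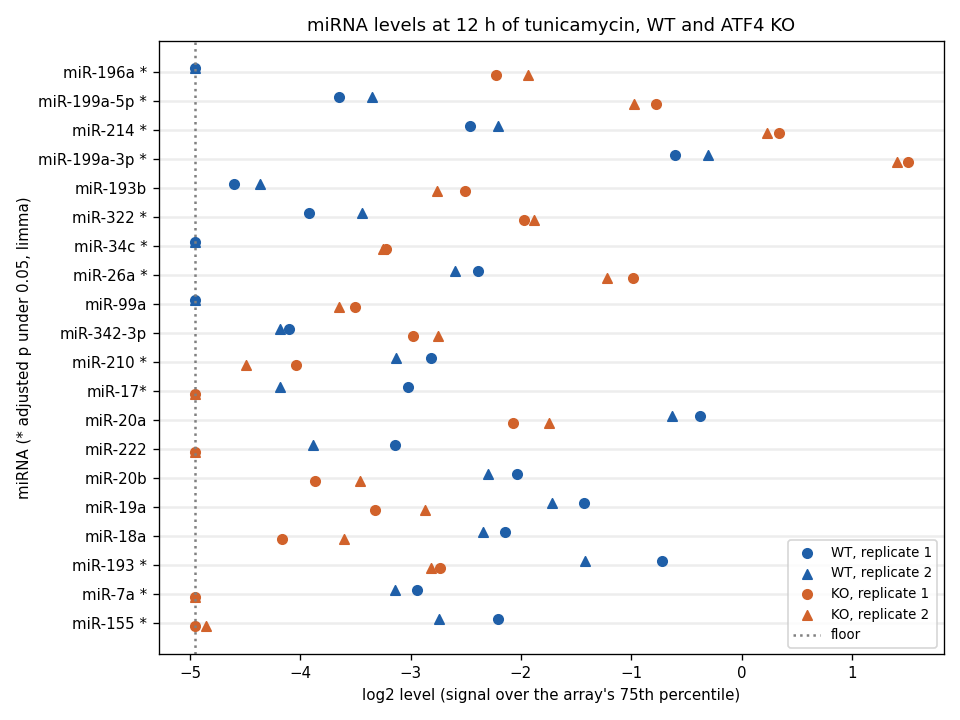
Log2 level of 20 miRNAs (rows) on each of the 4 arrays at 12 h of tunicamycin, WT in blue and KO in orange, with replicate 1 as circles, replicate 2 as triangles and the floor at -4.96 dotted; an asterisk marks limma's adjusted p under 0.05, other than the one that ends the name of miR-17*. WT and KO points do not overlap in any row, and 6 rows have both points of a genotype at the floor.

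miR-196a, encoded in the Hox gene clusters and known to act on Hox mRNAs, was at the floor and not well above background on both WT arrays. On the KO arrays it read -2.23 and -1.94, so that KO was at least 7.16-fold higher (adjusted p = 0.0448). That bound sets the KO mean against the lowest level well above background in WT and leaves out the standard error. miR-196b, with the same seed, read -3.17 and -3.27 in WT and -2.31 and -1.97 in KO. Its difference of 1.08 ± 0.24 did not pass (adjusted p = 0.0538).

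The miR-15/16 seed family, known for repressing cell-cycle genes, had 1 call among its 4 tested members, beside 9.17 percent of all tested. miR-322, cut from an X-linked transcript at chrX:53054255-53054349, read -3.92 and -3.45 in WT and -1.97 and -1.88 in KO. It was higher by 1.75 ± 0.35 (adjusted p = 0.0457), or 3.37-fold. Its seed mates miR-15a, miR-15b and miR-16 had differences of 0.20 ± 0.26, 0.19 ± 0.29 and 0.21 ± 0.21, all close to the median of all miRNAs and none past the threshold. miR-16, for example, read -0.93 and -0.95 in WT and -0.85 and -0.62 in KO.

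miR-34c, a target of p53 that restrains proliferation, was at the floor on both WT arrays and at -3.22 and -3.25 in KO. KO was at least 3.22-fold higher (adjusted p = 0.0305). miR-34b-5p was also at the floor in WT and read -3.98 and -3.79 in KO (at least 2.05-fold, adjusted p = 0.0814). miR-34a, from another chromosome, had -3.19 and -3.65 in WT and -2.60 and -2.47 in KO, a difference of 0.88 ± 0.46 (adjusted p = 0.290). Thus 1 of the 3 tested members passed as higher, beside 5.83 percent higher among all tested. The median of the 3 was 1.07 beside 0.13 for all miRNAs.

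miR-26a, hosted by genes of small C-terminal domain phosphatases, read -2.39 and -2.60 in WT and -0.99 and -1.22 in KO. The difference, 1.39 ± 0.18 (adjusted p = 0.0305), was nearly the same on both replicates, 1.40 and 1.38. miR-26b, hosted by another gene of that family, Ctdsp1, was at 0.70 ± 0.19 and did not pass (adjusted p = 0.0785).

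Filling the rule for named miRNAs to 10 higher gave miR-193b, miR-99a and miR-342-3p, none past the threshold. miR-193b read -4.60 and -4.37 in WT and -2.51 and -2.76 in KO, a difference of 1.85 ± 0.58 (adjusted p = 0.0911). miR-99a was at the floor in WT, so that KO was at least 2.55-fold higher (adjusted p = 0.0814), and miR-342-3p differed by 1.28 ± 0.37 (adjusted p = 0.0814).

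Among the miRNAs lower in KO was miR-155, a regulator of inflammatory signalling. It read -2.21 and -2.75 on the WT arrays and -4.95 and -4.86, close to the floor, on the KO arrays. It was well above background on 1 of the 2 KO arrays. KO was lower by 2.43 on the log2 scale (-2.43 ± 0.33, adjusted p = 0.0305), a size that the floor limits. miR-7a, known from neural and endocrine cells, read -2.94 and -3.14 in WT and was at the floor on both KO arrays. WT was at least 3.56-fold higher (adjusted p = 0.0305). In the deposited value table the sign of miR-7a is the opposite, as described at the end.

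miR-193 and miR-193b have the same seed and were on opposite sides. miR-193 read -0.73 and -1.42 in WT and -2.73 and -2.82 in KO, a difference of -1.70 ± 0.32 (adjusted p = 0.0448), or 3.26-fold lower. The values of miR-193b above, with 1.85 for KO minus WT, did not pass, and in the deposited value table miR-193b turns to -1.68, the same side as miR-193. miR-365, whose hairpins lie downstream of both miR-193 genes, was at -0.87 ± 0.21 (adjusted p = 0.0666) and was looked up after its values were seen.

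miR-210, the miRNA best known for induction by hypoxia, read -2.82 and -3.13 in WT and -4.03 and -4.49 in KO. The difference was -1.29 ± 0.21 (adjusted p = 0.0344), or 2.45-fold lower.

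The miR-17~92 cluster, a MYC target that promotes proliferation, had no member past the threshold, but every tested member read lower on both KO arrays than on both WT arrays, as did 22.5 percent of all tested miRNAs. miR-18a read -2.14 and -2.35 in WT and -4.16 and -3.60 in KO, a difference of -1.64 ± 0.35 (adjusted p = 0.0529). miR-19a (-1.52 ± 0.41), miR-20a (-1.40 ± 0.43), the passenger strand miR-17* (-1.36 ± 0.48), miR-19b (-1.17 ± 0.43) and miR-92a (-1.02 ± 0.37) had adjusted p from 0.0777 to 0.132. miR-17* was at the floor on both KO arrays and well above background on 1 of them, so the floor sets the size of its difference. miR-20b, from the X-linked paralog cluster, was at -1.50 ± 0.45 (adjusted p = 0.0862). The 7 differences kept their sign in every alternative run. The miR-106b~25 cluster, whose members share seeds with miR-20a and miR-92a, lay around 0 or above: miR-106b was at 0.55 ± 0.22, miR-25 at 0.34 ± 0.20 and miR-93 at -0.03 ± 0.23, none past the threshold. miR-106b read -1.63 and -1.92 in WT and -1.25 and -1.20 in KO, while its seed mate miR-20a read -0.38 and -0.63 in WT and -2.07 and -1.74 in KO. Of the 10 tested members of both clusters and the X-linked paralogs 0 passed, with a median of -1.26. Fitted on the 4 arrays at 12 h alone, 7 were lower and 0 higher, beside 15.8 percent lower and 18.3 percent higher among all tested. miR-17 itself was not well above background on any of the 12 arrays.

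miR-221 and miR-222, a cluster that represses the cell-cycle inhibitor p27, were also on the low side. miR-221 read -0.62 and -1.15 in WT and -2.08 and -1.93 in KO, a difference of -1.12 ± 0.28 (adjusted p = 0.0666). miR-222 read -3.14 and -3.89 in WT and was at the floor on both KO arrays and well above background on 1 of them, so the floor sets the size of its difference (-1.44 ± 0.31, adjusted p = 0.0529). The miR-29 family, known to repress collagen mRNAs, had differences of -0.63 ± 0.33 (miR-29a), -1.02 ± 0.34 (miR-29b) and -0.65 ± 0.35 (miR-29c). None of the 3 passed, and the KO arrays lay below the WT arrays for each, as for 22.5 percent of all tested.

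**Figure D3:**
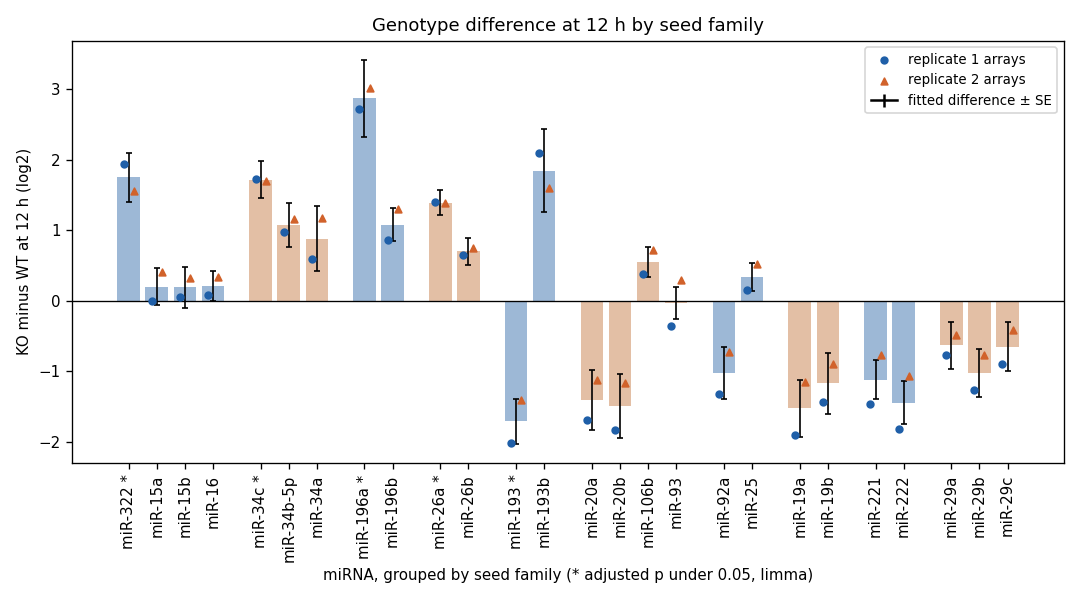
KO minus WT at 12 h (log2, y axis) for miRNAs grouped by seed family (x axis; alternating colours separate families); bars give the fitted difference and error bars its SE, circles the replicate 1 arrays and triangles the replicate 2 arrays. The bars of miR-193 (-1.70) and miR-193b (1.85), and of miR-20a (-1.40) and miR-106b (0.55), point in opposite directions within their families; with the scanner software's totals miR-193b turns to -1.68.

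Of 30 miRNAs that the literature links with ER stress signalling, 17 were tested. miR-199a-5p and miR-214, reported to repress sensors of that response, and miR-322 were higher, miR-7a was lower, and 13 did not pass, beside 5.83 percent higher and 3.33 percent lower among all tested. The median was 0.22 beside 0.13 for all miRNAs. Members that did not pass included miR-30d, linked to the chaperone GRP78, at 0.59 ± 0.24 (adjusted p = 0.170). miR-24 stood at -0.17 ± 0.18 (adjusted p = 0.613).

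Of 9 tested let-7 members, growth-restraining miRNAs, 0 passed, beside 9.17 percent of all tested. Their median was 0.21 beside 0.13 for all miRNAs, and let-7i had a difference of 0.99 ± 0.29 (adjusted p = 0.0817). let-7i read 0.10 and -0.06 in WT and 1.05 and 0.97 in KO. let-7b differed by 0.48 ± 0.17 (adjusted p = 0.130).

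Among the fibroblast markers, miR-199a-3p and miR-214 were higher, beside 5.83 percent higher among all tested, and 8 of the 10 tested did not pass. Their median was 0.03. KO lay above WT without overlap for 4 of the 10 and below for 5, beside 36.7 and 22.5 percent of all tested. miR-21 read 4.37 and 3.91 in WT and 4.57 and 4.53 in KO, a difference of 0.41 ± 0.20 (adjusted p = 0.251). miR-125b-5p was at -0.65 ± 0.18 (adjusted p = 0.0785) and miR-22 at -0.35 ± 0.20 (adjusted p = 0.312). Their part in the differences above was not tested.

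At 24 h the genotype difference, as the mean of both replicates, had the same sign as at 12 h for all 20 miRNAs in the plot of levels. Single replicates did not always share it: on replicates 1 and 2 at 24 h miR-193b differed by 1.90 and -0.13, and miR-99a by 1.37 and 0. The 24 h difference passed limma's threshold for 5 of 120 (4.17 percent). miR-34c (2.42 ± 0.26) and miR-26a were higher (1.67 percent), and miR-210 (-2.05 ± 0.21), miR-7a (-2.20 ± 0.24) and miR-155 (-2.03 ± 0.33) lower (2.5 percent). All 5 are among the 11 at 12 h. Tested directly, the 12 h difference minus the 24 h difference passed for 0 of 120 by limma, and 0 had an unadjusted p under 0.05. The intervals are wide: for miR-196a this difference was 1.18 ± 0.77 and for miR-193 it was -0.80 ± 0.45. Both times share scans and a slide.

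In untreated cells, on other arrays and another slide, the genotype difference was already of like size for some of these miRNAs. It is given as a mean of both replicates and was not tested on its own. Across the 120 miRNAs the genotype difference at 12 h correlated with that of untreated cells at 0.66, a description over arrays that are not shared but were scaled on the same miRNA set. miR-196a (2.79 untreated and 2.87 at 12 h), miR-199a-5p (2.43 and 2.62), miR-155 (-2.68 and -2.43) and miR-7a (-2.19 and -1.92) had nearly the same difference without and with tunicamycin. The test of the change gave 0.08 ± 0.70 for miR-196a, 0.19 ± 0.50 for miR-199a-5p, 0.25 ± 0.42 for miR-155 and 0.28 ± 0.28 for miR-7a. None of these passed, which does not show that the differences are equal. The floor also limits these sizes: miR-196a was at the floor on all untreated and 12 h WT arrays. In KO at 12 h miR-7a was at the floor and miR-155 close to it.

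For miR-322, miR-34c and miR-26a the genotype difference before treatment was small or the other way. miR-322 read -1.76 and -1.58 in untreated WT and -2.09 and -1.97 in untreated KO. The genotype difference went from -0.36 to 1.75, a change of 2.12 ± 0.44 (adjusted p = 0.0346). That of miR-34c went from -0.60 to 1.72 (2.31 ± 0.31, adjusted p = 0.0132) and that of miR-26a from 0.12 to 1.39 (1.27 ± 0.20, adjusted p = 0.0149). For these 3 the WT level at 12 h was below that of untreated WT cells on every array, as miR-26a shows with -1.22 and -1.34 untreated against -2.39 and -2.60. The KO arrays of miR-26a read -1.20 and -1.12 untreated and -0.99 and -1.22 at 12 h. miR-210, in contrast, differed more before treatment: it was at the floor on both untreated KO arrays, and its difference went from -3.71 to -1.29 (2.42 ± 0.24, adjusted p = 0.00763).

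In all 17 of 120 (14.2 percent) passed in this comparison with untreated cells, all towards a higher KO value. The median genotype difference was itself -0.55 in untreated cells and 0.13 at 12 h. Untreated arrays had the smaller spread, so the errors of this comparison are averages over unequal groups. With each of the other 4 scalings 0 passed, and leaving out 1 array left 0 to 5. Slide and treatment cannot be told apart, because each slide held either untreated or treated arrays alone.

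**Figure D4:**
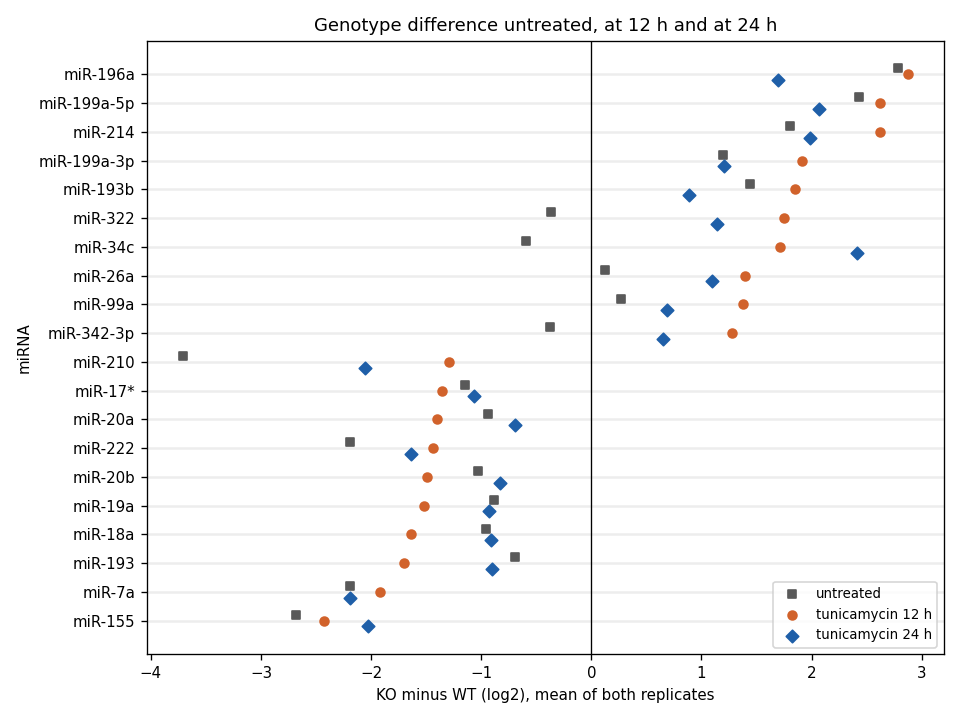
KO minus WT (log2, x axis, mean of both replicates) for the same 20 miRNAs (rows), untreated as grey squares, after 12 h of tunicamycin as orange circles and after 24 h as blue diamonds. miR-322, miR-34c and miR-342-3p lie below 0 untreated and above 0 at both treated times, and miR-210 moves from -3.71 untreated to -1.29 at 12 h.

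A set of miRNAs differed far more between replicates than between genotypes. Repeat-derived miRNAs of an Sfmbt2 intron, such as miR-466f-3p, summed to 92.1 percent of the 75th percentile on WT replicate 1 and 1832 on WT replicate 2. On the KO arrays the sums were 115 and 1803 percent. miR-466f-3p read -4.96 and 1.41 in WT and -4.96 and 1.34 in KO. The rise was neither in every member nor in this set alone. miR-467b of the set read -3.50 and -4.01 in WT. Outside the set miR-574-3p read -4.96 and 1.51 in WT, and miR-207 read -4.96 and 1.01. Of the 14 tested members of the set 0 passed, beside 9.17 percent of all tested, and the median difference was -0.01. The sums on replicate 2 arrays were high in both genotypes alike, and replicate numbers followed the scan date. Over all 120 miRNAs the deviations from the group mean correlated at 0.96 between same-numbered WT and KO arrays.

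The values above are sums over each miRNA's own probes. The scanner software also writes a total gene signal per miRNA, and the deposited value table is its log2. On the 12 h arrays this total differed by over 1 percent from the miRNA's own probes, all or some of them, for 28.4 to 31.0 percent of detected names, 43 of 147 on WT replicate 1 and 52 of 168 on WT replicate 2. On KO replicates 1 and 2 the counts were 47 of 160 and 46 of 162. In 42, 52, 47 and 46 of these, in the same order, the total equalled own probe signal plus the total gene signal of another miRNA to within 0.003 units. In each of those that other miRNA was the detected name just before it in alphabetical order. Of the 120 tested miRNAs 40 were affected on at least 1 of the 4 arrays.

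miR-193b on WT replicate 1, for example, had a total gene signal of 183 where its own probes summed to 11.8, and the total equalled some of its own probe signal plus the total of miR-193. miR-7a on KO replicate 1 had 1142 where its own probes summed to 6.13, and there the total that was added was that of miR-720. miR-222 carried the total of miR-221 on WT replicate 2 (196 against 26.5) and on KO replicate 1 (87.4 against 9.40). With the total gene signal, KO minus WT at 12 h turned to 1.04 for miR-7a and to -1.68 for miR-193b, and 0 of the 120 passed.

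**Figure D5:**
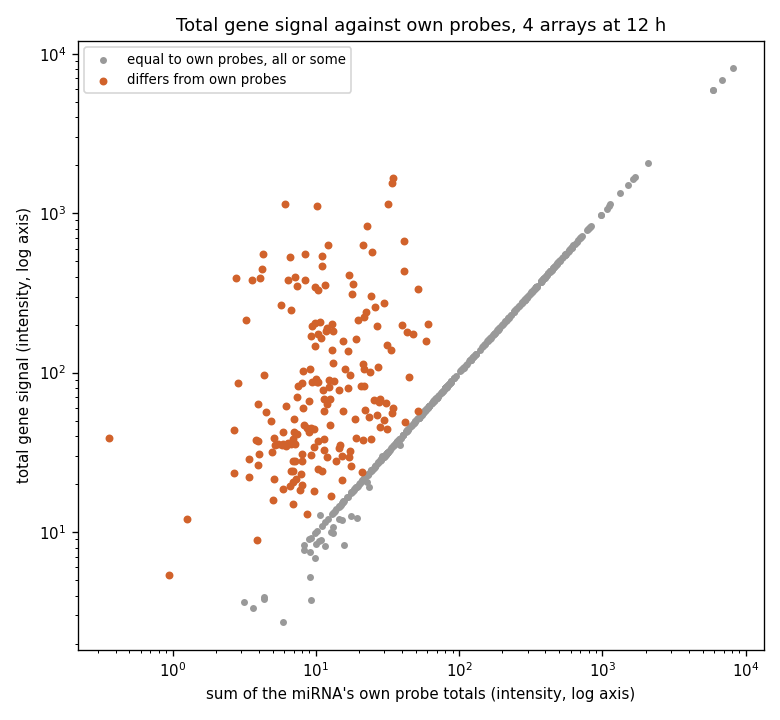
Total gene signal written by the scanner software (y axis, log scale, intensity) against the sum of the miRNA's own probe totals (x axis, log scale, intensity) for detected mouse miRNAs on the 4 arrays at 12 h. Grey points, whose totals equal all or some of their own probes, lie near the line of equality or below it. Orange points, whose totals differ from their own probes, lie above it.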

How the data were processed

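Arrays were 1-colour (Cy3) Agilent miRNA arrays read with Agilent Feature Extraction 10.7.1.1, per the submitters' processing notes. The spot values are intensities, background-subtracted and not scaled between arrays, per the file headers. The deposited table is on a log2 scale and equals the log2 of the software's total gene signal to within 1e-06. Its column medians ran from 5.44 to 6.90. Blanks are undetected miRNAs.

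Processed signals were averaged per probe without control or outlier spots, summed over a miRNA's probes, divided by the array's 75th percentile, raised to the floor and put on a log2 scale. The floor was 3.22 percent of the 75th percentile, taken from the 1st percentile of signals above background on each array, as the median of the 12. A probe was well above background if at least 50 percent of its spots were flagged so. A miRNA was tested if any of the 4 tunicamycin groups had it above background on both of its arrays.

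The fit used limma 3.58.1 in R 4.3.3 (lmFit, eBayes, Benjamini-Hochberg over 120 miRNAs). It held group means of the 8 tunicamycin arrays with the replicate number as a block, which left 3 residual degrees of freedom. Untreated arrays were left out because an earlier look at these data found their spread several times smaller than that of tunicamycin arrays. The numbers pair the arrays: same-numbered arrays share a date in the labels, and deviations from the group means correlated at 0.72 or more between all tunicamycin groups. The contrast with untreated cells used all 12 arrays with the scan date as a block, so its errors are averages over groups of unequal spread. Named miRNAs were up to 12 each way past the threshold with groups that do not overlap, filled to 10 each way by size, plus list members. Members and lists were chosen with earlier results of these data known. Alternatives covered background correction, the measure, scaling, floor, filter, block, arrays in the fit and leaving out each array. Mean spot signals were not in the files, so normexp used median signals.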

Additional observations from a re-analysis of the deposited data

Results flagged for a closer look

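For 10 miRNAs named above, limma's direct test found a genotype difference at 12 h that differed from that of untreated cells (adjusted p from 0.00763 to 0.0465). The change in KO minus WT was 2.42 for miR-210, 2.31 for miR-34c, 2.12 for miR-322 and 1.97 for miR-34b-5p. It was 1.58 for let-7i, 1.36 for miR-26b, 1.27 for miR-26a, 1.14 for miR-106b, 0.99 for miR-16 and 0.97 for miR-21. All are positive, the median genotype difference of all tested miRNAs was -0.55 untreated and 0.13 at 12 h, and 0 of 120 passed with any of the other 4 scalings. Groups of 2 arrays allow no test for single outlying arrays.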

How the results depend on the processing

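The 11 miRNAs past the threshold at 12 h became 0 with normexp, the total gene signal, the deposited table, quantile normalization or no filter, 1 with a floor 2 times higher and 5 with no scaling. They became 41 on the 4 arrays at 12 h with the replicate block, 35 on all 12 arrays with the scan date as a block and 39 on all 12 with no block. Without the replicate block the 8 arrays gave 8, all among the 11, with miR-196a, miR-214 and miR-199a-3p lost (adjusted p = 0.0505 each). Leaving out 1 array gave 0 to 28. Sums of total probe signals, an alternative added after the data were seen, gave 11. The other alternatives gave 8 to 16. The cause of these changes was not tested.

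The median difference of 0.13 became -0.0467 with median scaling, -0.13 with the 75th percentile over all miRNAs, 0 with no filter, and -0.015 to 0.39 without 1 array. The 17 miRNAs that differed from untreated cells became 0 with each other scaling, 15 with no block and 0 to 5 without 1 array. The 0 of the 12 h minus 24 h test was 0 in all 26 alternatives run. It could not be run on the 4 arrays at 12 h alone.

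Among named miRNAs past the threshold, the direction of 10 of the 11 was the same in every alternative. Under the software's totals, and likewise in the deposited table, miR-7a turned to 1.04, miR-193b to -1.68, miR-93 to 0.58 and miR-466f-3p to 0.45. Near 0, miR-15a turned to -0.12, miR-15b to -0.13 and miR-16 to -0.11 with the 75th percentile over all miRNAs, miR-15b to -0.061 with quantile normalization and miR-466f-3p to 0.12 with a floor 2 times lower. Without 1 array miR-93 ran from -0.26 to 0.20, miR-15a from -0.0089 to 0.42, miR-15b from -0.070 to 0.45 and miR-466f-3p from -0.85 to 0.78. Signal over background limits the rest: 25 of the 120 were at the floor on at least 1 of the 4 arrays.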

Other observations

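The mismatch between total gene signal and own probes was not limited to the 12 h arrays: it touched up to 36.7 percent of detected names, on KO replicate 1 at 24 h. On each of the 4 arrays at 12 h 1 name outside the mouse miRNAs was well above background, as on 3 of the 4 untreated arrays. At 24 h KO replicate 2 had 3 such names and each other array 1.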
